A study of Mus musculus with 28 samples.

Results

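In testes of the Prdm9 K/K mouse, in which the KRAB domain of PRDM9 is missing (strain C57BL/6), 3453 of the 17731 deposited peaks of meiotic DNA breaks (19.5%) were weak and lay between genes. Peaks were chosen by their measured fragment count and their place: a peak belonged to the class when it held fewer than 57 distinct fragments of single-stranded DNA, when its nearest edge was over 1000 bp from both ends of every annotated gene, and when its middle was outside all protein-coding genes (RefSeq, GRCm38.p6). Fragment counts are therefore given below as a description only. Pseudogenes and noncoding genes were not kept out by the choice, and 467 of the weaker peaks between genes (13.5%) had their middle inside one, 446 of them inside a long noncoding RNA (lncRNA) gene. The other peaks were 183 strong ones between genes, 2971 weaker and 377 strong ones inside protein-coding genes, and 10747 within 1000 bp of a gene end.

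The breaks were mapped in 1 Prdm9 K/K testis library by SSDS, which sequences the single-stranded DNA pulled down from fixed whole testis with an antibody to DMC1. With 1 library there is no replicate, so the tests below compare fragments within that library, and intervals cover counting error only. Testis mRNA from the same strain was used for the genes beside the peaks, in 2 libraries of Prdm9 knockouts (KO), 2 of Hop2 knockouts and 1 of an adult wild type. Hop2 acts with DMC1 in strand exchange. The labels give no age for the K/K or KO mice, and no mRNA library of K/K mice was used here. The series has 28 samples in all, and the others were not analysed here.

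In meiosis the nuclease SPO11 cuts both DNA strands, the 5′ ends on each side are trimmed back, and the recombinase DMC1 coats the remaining single strands. The forward strand is therefore recovered to the left of a break and the reverse strand to its right. PRDM9 normally places breaks by binding DNA and trimethylating histone H3 at lysine 4 (H3K4me3), mostly away from promoters. In mice without PRDM9, breaks form at promoters and other sites that carry this mark, and the KRAB domain is a protein interaction module of PRDM9.

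The choice removed every peak within 1000 bp of the outer end of a gene, so the starts of transcription left in the class are those inside a gene. Their sequences are shown because breaks without PRDM9 are known at promoters. The start windows of RefSeq (GRCm38.p6) cover 250 bases before and 50 bases after a start. Of the 32817 windows, 14 overlapped a weaker peak between genes, in 11 peaks (0.319%) that lay inside 11 lncRNA genes and over 1000 bp from their outer ends. The strand test described below was passed by 4 of these 11 peaks, against 38.7% of all weaker peaks between genes and 57.2% of all peaks. A window of each of the 4 is printed together with that of Gm36520, whose start lay nearest to a peak middle, at 114 bp. The windows are Gm36520 at chr3:130866796-130867095 (plus strand), Gm31235 at chr17:74079026-74079325 (minus strand), Gm36503 at chr6:16550083-16550382 (plus strand), Gm40261 at chr5:4312803-4313102 (plus strand) and Gm30034 at chr10:26494104-26494403 (plus strand). Each is written 5′ to 3′ on the strand of its gene, and capitals mark matches to the motifs named after the sequences.
Gm36520: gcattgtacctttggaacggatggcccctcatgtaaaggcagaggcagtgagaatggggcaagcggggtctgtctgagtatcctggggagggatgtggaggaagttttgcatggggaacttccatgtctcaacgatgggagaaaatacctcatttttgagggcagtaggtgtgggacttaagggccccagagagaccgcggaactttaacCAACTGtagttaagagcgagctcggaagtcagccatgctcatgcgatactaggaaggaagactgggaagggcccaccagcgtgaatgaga
Gm31235: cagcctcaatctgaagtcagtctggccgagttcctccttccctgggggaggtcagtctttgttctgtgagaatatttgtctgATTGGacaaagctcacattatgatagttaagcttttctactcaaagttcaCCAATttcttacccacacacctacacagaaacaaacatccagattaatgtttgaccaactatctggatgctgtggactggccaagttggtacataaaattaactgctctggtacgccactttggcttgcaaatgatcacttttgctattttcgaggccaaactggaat
Gm36503: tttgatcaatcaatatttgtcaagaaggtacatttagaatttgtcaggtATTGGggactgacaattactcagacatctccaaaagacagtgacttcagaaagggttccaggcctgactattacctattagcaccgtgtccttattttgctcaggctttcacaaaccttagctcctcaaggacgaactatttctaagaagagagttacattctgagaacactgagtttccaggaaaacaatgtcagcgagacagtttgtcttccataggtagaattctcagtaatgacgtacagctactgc
Gm40261: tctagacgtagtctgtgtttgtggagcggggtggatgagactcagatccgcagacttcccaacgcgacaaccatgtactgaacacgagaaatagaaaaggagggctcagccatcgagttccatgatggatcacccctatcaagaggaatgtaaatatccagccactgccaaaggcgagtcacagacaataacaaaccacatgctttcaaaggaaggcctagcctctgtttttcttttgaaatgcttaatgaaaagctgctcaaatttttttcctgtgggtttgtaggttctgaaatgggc
Gm30034: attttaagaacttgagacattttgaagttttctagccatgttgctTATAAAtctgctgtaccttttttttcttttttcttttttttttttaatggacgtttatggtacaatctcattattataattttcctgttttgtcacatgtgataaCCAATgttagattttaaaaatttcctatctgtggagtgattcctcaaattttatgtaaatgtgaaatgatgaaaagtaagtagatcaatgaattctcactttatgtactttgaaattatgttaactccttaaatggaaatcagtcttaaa

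Motifs were searched on both strands, and matches of different motifs may touch. CCAAT, the letters of the CCAAT box, matched in 5 of the 14 windows (35.7%), against 37.4% of all start windows. GGGCGG, the core of the GC box, matched in 1 of 14 (7.14%), against 35.6% of all windows. The TATA box letters TATAAA matched in 2 of 14 (14.3%), against 13.6% of all windows. The core of MYB sites, CAGTTG, matched in 3 of 14 (21.4%), against 13.7%. The letters GCATGCGC, of sites of the factor NRF1, matched in 1 window, against 2.71% of all windows. No match was found for TGACGTCA, the cAMP response element, which was in 1.79% of all windows, for its variant TGACGTAA, in 0.497%, or for GTTGCCATG, from sites of RFX factors, in 0.771%. The 3 windows of C330002G04Rik overlap each other, so the 14 are not separate sites. Their median GC content was 46.2% (26.3 to 55.7%), against 52.7% for all windows, and the median observed over expected ratio of CpG was 0.269, against 0.383. Of the peaks whose windows are printed, that at Gm40261 held 45 fragments, that at Gm30034 held 32, that at Gm31235 held 29, that at Gm36503 held 11 and that at Gm36520 held 9. All 9 fragments at Gm36520 were in the orientation of a break, 1 left and 8 right of the middle. The peak did not pass the test (Fisher's exact test, adjusted p = 0.158). With 1 fragment on the left it could not pass, whatever the strands. The sequence of the remaining peaks was not analysed here.

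The weaker peaks between genes held a median of 14 distinct fragments, with quartiles of 9 and 23 and a range of 2 to 56, in a median width of 1492 bp. Together they held 60970 fragments, which is 8.73% of the 698632 fragments in peaks and 2.30% of the 2652951 distinct fragments of the library. Fragment density was 11.2 per kb inside them and 1.39 per kb at 2 to 10 kb on either side, a ratio of 8.04. The flanks were not cleared of other peaks, and 22.4% of the weaker peaks between genes had another peak within 10 kb. The strong peaks between genes had 34.5 per kb inside and 1.75 per kb beside them, and the peaks at gene ends 22.4 and 1.36. The density beside the peaks, other peaks included, thus lay in a narrow range. Inside the weaker and the strong peaks between genes, the density follows from the limit on counts. That limit was not applied to the peaks at gene ends. At that limit, 5 weaker peaks between genes held 56 fragments and 6 strong ones held 57. Those named just inside it were chr1:108661782-108663765, chr1:136568830-136571942 and chr4:88936995-88939225, with 94.6%, 75% and 89.3% of fragments in break orientation. Those just outside it were chr4:11454170-11456264, chr4:35256948-35259335 and chr4:89523288-89525768, with 77.2%, 84.2% and 84.2%.

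The strands of the fragments, which played no part in the choice, were laid out as at resected breaks, with forward fragments on the left and reverse fragments on the right, here called break orientation. Whether strand entered the calling of the peaks is not stated in the labels or headers. To the left of the peak middle 79.0% of fragments were forward (23899 against 6353 reverse), and to the right 78.8% were reverse (24213 against 6505 forward). Pooled, 78.9% of fragments in weaker peaks between genes were in break orientation (95% Clopper-Pearson interval 78.6 to 79.2%), against 80.2% over all peaks (80.1 to 80.3%). Among the other classes the share was 79.5% in strong peaks between genes, 79.9% in weaker peaks inside genes, 80.5% in strong peaks inside genes and 80.4% at gene ends. The weaker peaks between genes had the lowest of these shares, and the difference between classes was not tested.

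**Figure D1:**
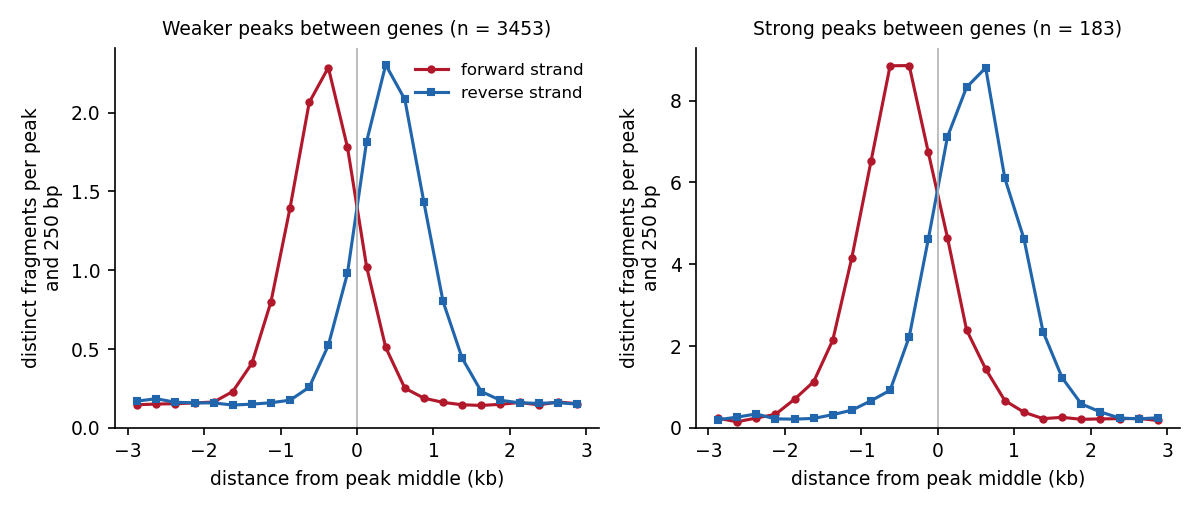
Distinct forward and reverse fragments per peak in bins of 250 bp (vertical axes), by distance from the peak middle in kb (horizontal axes), for weaker peaks between genes (left panel, n = 3453) and strong peaks between genes (right panel, n = 183). Forward fragments stand left of the middle and reverse fragments right of it in both panels, with median positions of -418 and 423 bp in the weaker peaks and -462 and 454 bp in the strong ones.

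The distance between the strands was measured in the 3412 weaker peaks between genes with at least 3 fragments of each strand within 2000 bp of the middle. The median position of the reverse fragments lay right of that of the forward fragments in 3322 of them (97.4%). Its median distance was 820 bp, with quartiles of 586 and 1040 bp. In the strong peaks between genes this distance was 925 bp, in weaker peaks inside genes 846 bp, in strong peaks inside genes 970 bp and at gene ends 983 bp. The weaker classes, between and inside genes, thus had the shorter distances. Peaks with few fragments were also narrower, and the part of width in this distance was not tested.

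Each peak was then tested by itself, with Fisher's exact test of strand by side, two-sided and adjusted by Benjamini-Hochberg over all 17731 peaks. In break orientation 1337 of the 3453 weaker peaks between genes passed (38.7%), against 57.2% of all peaks, and 0 passed in the opposite orientation. With Benjamini-Yekutieli adjustment 647 passed, and with every deposited line counted, copies included, 2723 passed. Counting every line also left 1948 peaks under the limit of 57 and so in the class. The lower share went with low counts: 8.31% passed at 2 to 9 fragments, 24.2% at 10 to 14, 45.2% at 15 to 19, 64.4% at 20 to 29 and 80.5% at 30 to 56. At up to 9 fragments, 5.19% of weaker peaks inside genes and 6.21% of gene-end peaks passed, both below the weaker peaks between genes. In the same order, 28.6% and 25.9% passed at 10 to 14 fragments, and 45.9% and 46.0% at 15 to 19. At 20 to 29 fragments it was 69.1% and 66.7%, and at 30 to 56 fragments 86.1% and 85.2%. The pooled share in break orientation stayed between 78.5% and 79.5% in each of these bins of weaker peaks between genes. Among the 2116 that did not pass, 2013 had most fragments in break orientation, and the passing peak with the fewest fragments had 7. All fragments were in break orientation in 272 of the weaker peaks between genes, of which 174 passed.

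**Figure D2:**
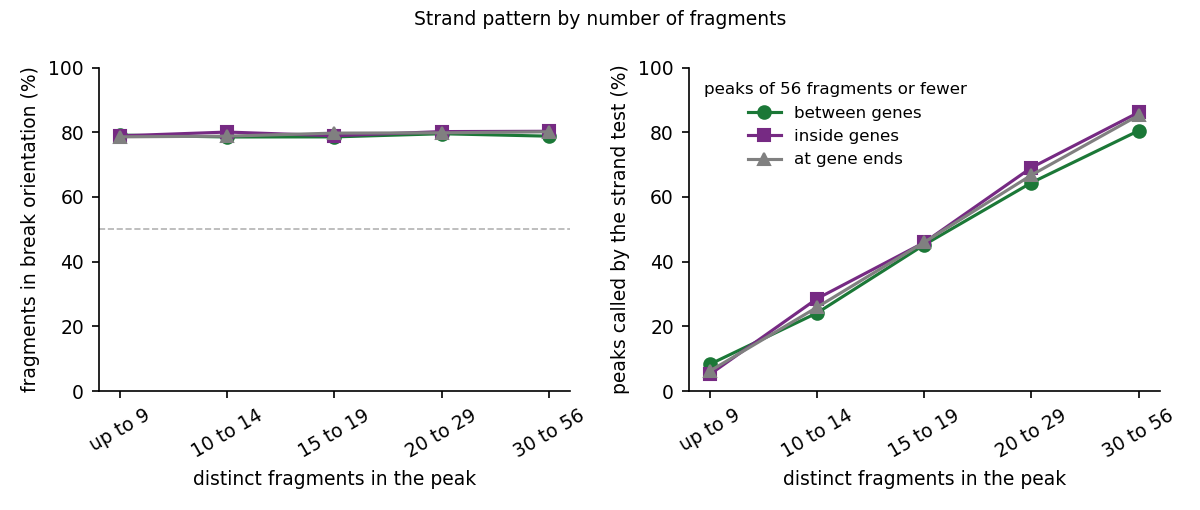
Share of fragments in break orientation (left panel, with a dashed line at 50%) and share of peaks that pass Fisher's exact test (right panel), both in percent, by number of distinct fragments in the peak, for weaker peaks between genes, weaker peaks inside genes and peaks at gene ends of at most 56 fragments. The first share is nearly flat across counts and the second climbs with them in every class, from 8.31% to 80.5% in weaker peaks between genes.

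Among the 6 weaker peaks between genes with the smallest strand p, 4 stood far from any protein-coding gene. At chr3:72451075-72453552 in GRCm38, 35 fragments were forward and 1 reverse left of the middle, and 19 were reverse and 0 forward right of it (adjusted p = 1.17e-12, Fisher's exact test). Its edge lay 284 kb from the nearest gene end, that of the pseudogene Gm22451, and its middle 436 kb from Sis, which encodes the intestinal enzyme sucrase-isomaltase. At chr2:74167503-74169431, 33.7 kb from the start of the lncRNA gene Gm31534, 46 of 47 fragments were in break orientation (adjusted p = 2.10e-11, Fisher's exact test), and the nearest protein-coding gene, Atp5g3, of the mitochondrial ATP synthase, was 256 kb away. At chr1:108661782-108663765 it was 53 of 56, with the nearest protein-coding gene, Serpinb8, a protease inhibitor, 1054 kb away. At chr15:17933257-17935027 it was 42 of 44, and the nearest gene was the pseudogene Gm2638, with the cadherin gene Cdh10 885 kb away. The other 2 stood beside a start. They were chr2:110960117-110962521, 9.73 kb from the start of Ano3, a member of the anoctamin family, with 50 of 54 fragments, and chr11:20531453-20533347, 9.82 kb from the start of Sertad2, with 46 of 49. A small p needs many fragments, so these 6 peaks stand near the upper count limit.

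At the other extreme, 103 weaker peaks between genes (2.98%) had no majority of fragments in break orientation. They held a median of 10 fragments, from 3 to 52, against 14 in the remaining 3350, and lay a median of 11.1 kb from a gene end, against 13.7 kb. The share of their fragments with the value 60 in both parts of the fourth column of the fragment file, whose meaning the sources do not give, was 91.8%, against 90.8%.

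The weaker peaks between genes lay a median of 13.7 kb from the nearest gene end, measured from the peak middle, with quartiles of 6.32 and 30.9 kb and a range of 1.63 to 619 kb. Within 10 kb stood 1361 of them (39.4%), over 50 kb away 482 (14.0%) and over 100 kb away 187 (5.42%). To the nearest end of a protein-coding gene the median was 39.0 kb, and 985 (28.5%) were over 100 kb away. The 183 strong peaks between genes had almost the same middle value, 13.3 kb, with 39.3% within 10 kb and 8.20% over 100 kb away. Fragments outside peaks in the same territory lay farther out, at a median of 20.2 kb, with 32.6% within 10 kb and 13.7% over 100 kb. These fragments leave out sequence within 2000 bp of any peak, also of the peaks at gene ends. Distance did not follow the number of fragments: the median was 15.02 kb at 2 to 9 fragments, 13.0 kb at 10 to 14, 13.7 kb at 15 to 19, 12.0 kb at 20 to 29 and 14.6 kb at 30 to 56.

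Per megabase of territory open to them, the weaker peaks between genes were densest within 20 kb of a gene. There were 3.31 per Mb at 2 to 5 kb (exact Poisson 95% interval 3.05 to 3.58), 3.46 at 5 to 10 kb (3.21 to 3.72) and 3.32 at 10 to 20 kb (3.10 to 3.56). Farther out the density was 2.43 per Mb at 20 to 50 kb (2.27 to 2.61), 1.42 at 50 to 100 kb (1.26 to 1.59) and 0.942 over 100 kb (0.812 to 1.09). The first 3 intervals overlap each other, and none of them overlaps those of the outer bands. Fragments outside peaks numbered 637 to 670 per Mb of territory in the same bands from 2 kb outward. Sequence within 2000 bp of a peak was left out for these fragments but kept in the territory. Their density is therefore understated most where peaks are many, and how even it is was not settled. The band of 1 to 2 kb held 41 peaks, but a peak whose edge is over 1000 bp from a gene end can hardly have its middle there, so its density says little. From 2 kb outward 78.3 to 82.3% of fragments were in break orientation in every band, and 36.2 to 41.2% of the peaks passed the test.

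**Figure D3:**
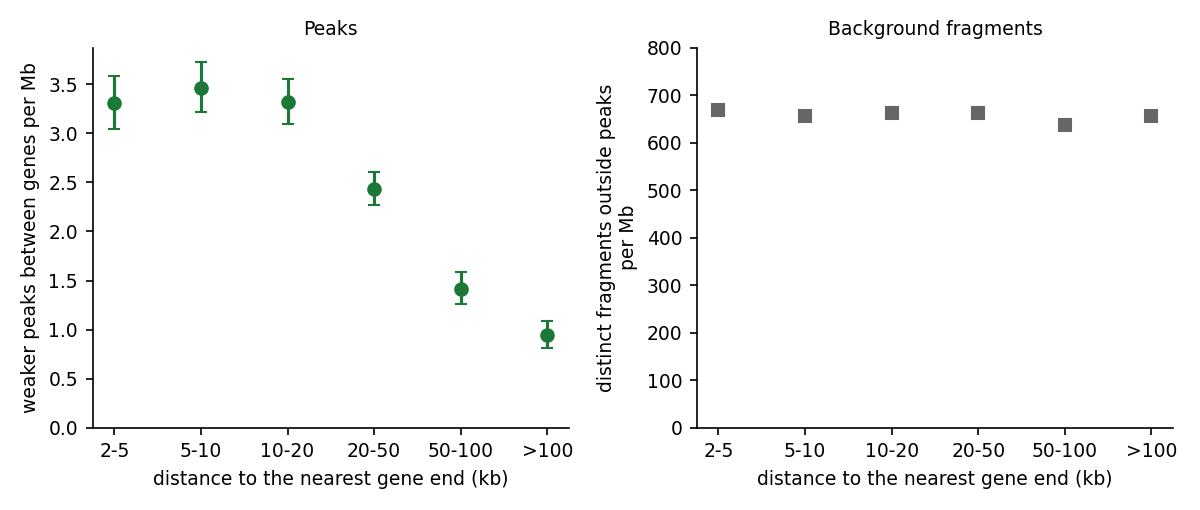
Weaker peaks between genes per Mb of territory with exact 95% Poisson intervals (left panel), and distinct fragments outside peaks per Mb (right panel), by distance from the nearest gene end in kb, from 2 kb outward. Peak density is level from 2 to 20 kb at 3.31 to 3.46 per Mb and reaches 0.942 per Mb over 100 kb. The fragments outside peaks stay between 637 and 670 per Mb of territory, which includes the sequence near peaks left out for these fragments.

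The strand of a gene was known for part of the genes, so the nearest end could be called a start or a termination point for part of the territory. At 5 to 10 kb there were 3.204 weaker peaks between genes per Mb beside starts (2.75 to 3.71) and 4.35 beside termination points (3.83 to 4.92). At 2 to 5 kb the values were 3.36 and 3.77, at 10 to 20 kb 3.90 and 3.88, and at 20 to 50 kb 2.95 and 3.00, with overlapping intervals in each of these bands. The difference at 5 to 10 kb was not tested, and fragments outside peaks were also fewer there beside starts, at 649 against 681 per Mb of territory. Sequence near peaks is missing from these fragments but not from the territory, so this contrast and the ratios below also depend on the peaks nearby. Relative to those fragments there were 4.93 weaker peaks between genes per 1000 beside starts and 6.39 beside termination points.

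The 6 weaker peaks between genes farthest from any gene stood in wide deserts. The farthest was chr14:82741030-82742100, whose edge was 619 kb from the pseudogene Gm19050 and whose middle was 1702 kb from Pcdh17, a protocadherin gene. It held 10 fragments, 7 of them in break orientation, and did not pass the test (adjusted p = 1, Fisher's exact test). In the same desert, chr14:82973599-82974778 held 16 fragments, 431 kb from the small nucleolar RNA gene Gm24774, with 13 in break orientation. The others were chr1:141826035-141827118, 528 kb from Gm25457, chr6:44544844-44545952, 461 kb from Gm35216, chr18:18717163-18718745, 449 kb from Gm31086, and chr4:27270272-27271833, 412 kb from Gm42264. The last of these, with 23 of 28 fragments in break orientation (adjusted p = 0.00178, Fisher's exact test), and the peak on chromosome 18, with 18 of 20 (adjusted p = 0.00198, Fisher's exact test), passed. The protein-coding genes nearest to those 2 were Manea, an endomannosidase of the Golgi, and Dsc3, a cadherin of desmosomes.

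Of the peaks nearest to a gene end, 4 are described. At Otp, a homeobox gene of the hypothalamus, chr13:94872598-94874619 lay 1017 bp from the start, with 13 of 17 fragments in break orientation (adjusted p = 0.146, Fisher's exact test). The other 3 were beside the pseudogene Gm9894 and the lncRNA genes Gm41131 and Gm34250. At Gm9894 all 27 fragments of chr13:67766081-67767691 were in break orientation (adjusted p = 1.22e-06, Fisher's exact test). The flanks of the peaks at Otp and Gm34250 held 65 and 100 fragments at 2 to 10 kb, against 9 and 13 for those at Gm9894 and Gm41131. Another peak stood 3.86 kb from the peak at Otp and 5.20 kb from that at Gm34250, against 37.7 kb at Gm9894 and 35.6 kb at Gm41131.

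The nearest gene of a weaker peak between genes was most often a lncRNA gene, for 1463 peaks (42.4%), while such genes are 25.5% of the 49943 annotated genes. The choice kept peaks inside lncRNA genes and removed those inside protein-coding genes, so the shares of annotated genes are no baseline for these counts. A protein-coding gene was nearest for 1140 (33.0%, against 43.8% of genes) and a pseudogene for 613 (17.8%, against 19.9%). Small nucleolar RNA genes were nearest for 97, small nuclear RNA genes for 61, microRNA genes for 39 and tRNA genes for 12. The strong peaks between genes had a like makeup, with 41.0% lncRNA, 32.2% protein-coding and 20.2% pseudogenes. The 467 weaker peaks between genes that lay inside a noncoding gene or pseudogene stood nearer to gene ends than the 2986 outside all genes. The medians were 7.16 kb inside and 15.2 kb outside, with 61.9% inside and 35.9% outside within 10 kb. Inside a gene the length of that gene limits the distance to an end, so this difference follows in part from the split. The share in break orientation was 79.1% inside and 78.9% outside, and the share passing the test was 38.1% inside and 38.8% outside.

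Of the 2986 weaker peaks outside all genes, 2985 had a gene on both sides. Those 2985 fell into 2313 gaps between genes, and 1836 of these gaps held 1. Gaps with 2 to 4 numbered 464, and 13 gaps held 5 or more, with 77 peaks among them. The fullest gap, of 651 kb between 5033403F01Rik and Gm32243 on chromosome 13, held 8. The gap of 275 kb between Ppp4r2, a phosphatase subunit gene, and Gm19726 on chromosome 6 held 7, as did that of 370 kb between Gm39127 and 4933430N04Rik on chromosome 8. The gap of 160 kb between A430105J06Rik and Gm39732 on chromosome 1 held 6, which is 37.5 per Mb, against 2.39 per Mb over the whole territory. This gap was picked for its count and the whole territory includes gaps without a peak, so the contrast follows in part from the choice. In these 4 gaps 74.6 to 84.1% of fragments were in break orientation. The nearest other peak stood a median of 26.4 kb from a weaker peak between genes, and for 48.0% of them it was a peak at a gene end, for 42.8% another weaker peak between genes. For weaker peaks inside genes the same median was 26.2 kb, with 53.1% at a gene end.

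By chromosome, the density of weaker peaks between genes was highest on chromosome 10, at 4.16 per Mb of territory (exact Poisson 95% interval 3.70 to 4.67), and on chromosome 19, at 4.11 (3.396 to 4.94). Chromosome 18 had 3.75 per Mb (3.24 to 4.32) and chromosome 17 had 3.34. Among autosomes it was lowest on chromosome 7, at 1.38 (1.13 to 1.68), and on chromosome 9, at 1.62 (1.31 to 1.97). Fragments outside peaks differed less between autosomes, at 615 per Mb on chromosome 7 to 778 per Mb on chromosome 9, and had 697 per Mb on chromosome 10. Per 1000 such fragments there were 5.97 weaker peaks between genes on chromosome 10 and 2.08 on chromosome 9. Peaks at gene ends were most frequent on chromosomes 19 and 18, at 27.9 and 27.6 per 100 genes, and least frequent among autosomes on chromosome 7, at 16.1. Chromosomes 19, 18 and 7 thus stood at the same ends of both orders, while chromosome 10 had 23.4 gene-end peaks per 100 genes, inside the autosomal range. The orders also parted on chromosome 9, with 21.6 gene-end peaks per 100 genes. Chromosome 14 had few gene-end peaks, at 16.7 per 100 genes, but 2.68 weaker peaks between genes per Mb.

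The X chromosome, present in 1 copy in males, had 61 weaker peaks between genes, or 0.522 per Mb (0.399 to 0.671), below every autosome. Fragments outside peaks were also fewer on the X, at 349 per Mb, and relative to them there were 1.49 weaker peaks between genes per 1000, against 2.08 to 5.97 on autosomes. Of the 61, 30 passed the strand test (49.2%), against 38.7% of all weaker peaks between genes and 57.2% of all peaks. The 61 held a median of 16 fragments, against 14 in the whole class, and 79.8% of their fragments were in break orientation. The Y chromosome had 1 peak in all and 0 weaker peaks between genes, with an upper bound of 0.0422 per Mb for the exact Poisson interval. Toward the distal end of the 19 autosomes, the last 5 Mb held 66 weaker peaks between genes (1.95%) in 3.86% of the length, and the last 10 Mb held 332 (9.79%) in 7.72%. The distal 5 Mb also held fewer peaks of other classes than its length, at 2.09% of weaker peaks inside genes and 2.56% of gene-end peaks. In the last 10 Mb stood 9.11% of weaker peaks inside genes and 9.04% of strong peaks between genes, both above the share of length, and 7.41% of gene-end peaks, below it.

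**Figure D4:**
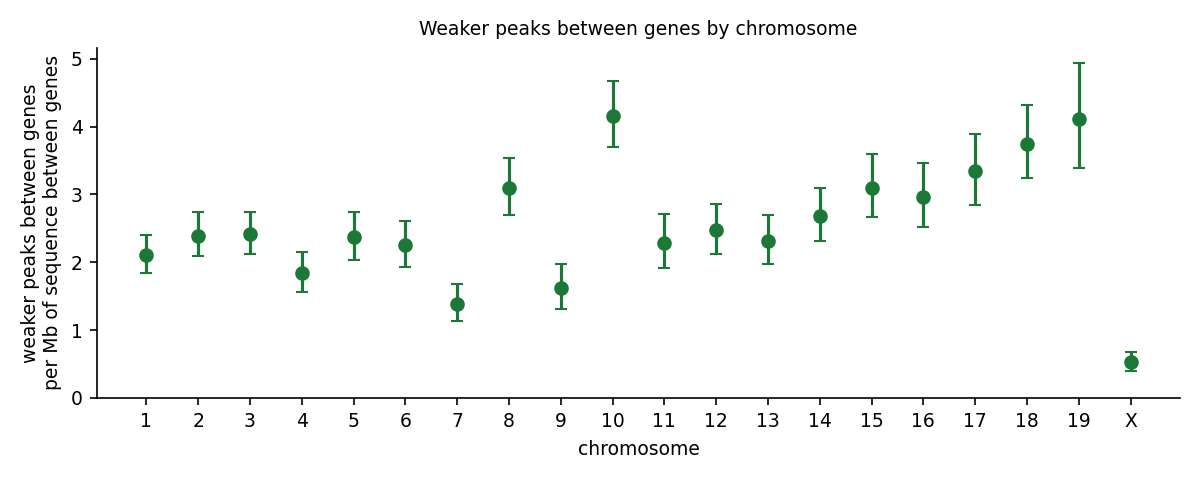
Weaker peaks between genes per Mb of territory (vertical axis) on each autosome and the X chromosome, as points with exact 95% Poisson intervals. Chromosomes 10 and 19 stand highest at 4.16 and 4.11 per Mb, chromosomes 7 and 9 are the lowest autosomes, and the X stands below every autosome at 0.522.

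The genes beside weaker peaks between genes had higher median mRNA levels in testis than protein-coding genes in general, but not within the genes that had a break peak at their own end. The nearest protein-coding gene was 1 of 2192 genes, of which 2136 had an mRNA value in the authors' rescaled TPM. Their median was 7.86 and 7.78 in the Prdm9 KO pair, 7.79 and 7.02 in the Hop2 KO pair and 8.39 in the wild-type library. Over all protein-coding genes the medians were 4.79 and 4.85 in the Prdm9 KO pair, 4.83 and 4.75 in the Hop2 KO pair and 6.79 in the wild-type library. A value of at least 1 was reached by 69.4 to 70.1% of the nearest genes in the 4 KO libraries and 75.7% in wild type, against 62.1 to 62.6% and 69.7% of all protein-coding genes. Genes with a break peak at their own end stood higher, at medians of 18.1 to 18.9 in the KO libraries and 21.3 in wild type. No test was made, since no library came from K/K mice and wild type has 1 library. The wild-type column has a larger sum than the KO columns, so these medians are to be compared within a library.

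**Figure D5:**
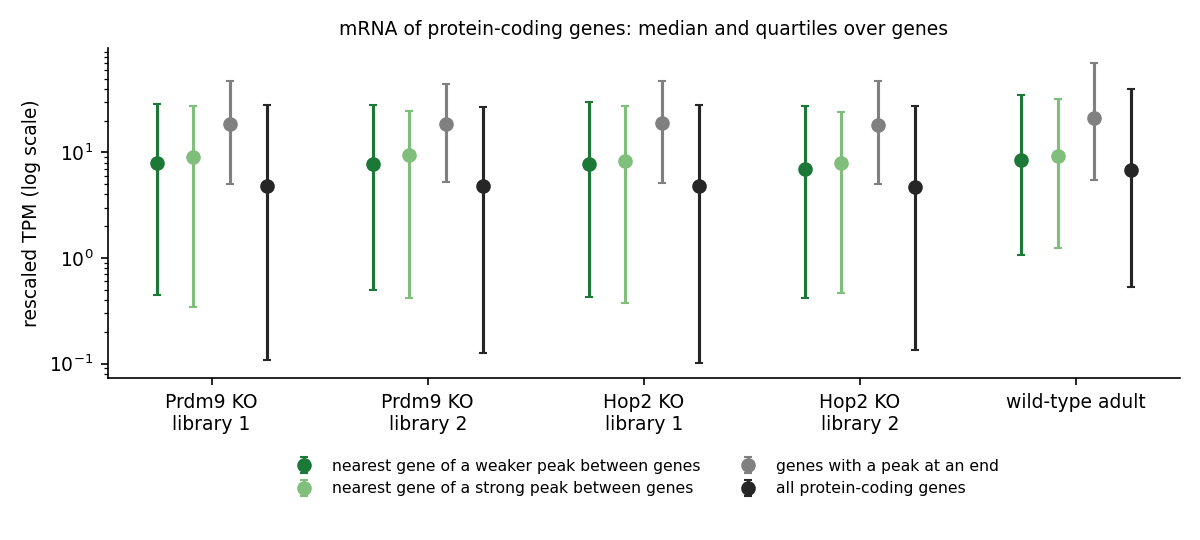
Level of mRNA in the authors' rescaled TPM on a log axis, as medians (points) and quartiles (bars) over genes, in each of the 2 Prdm9 KO, 2 Hop2 KO and 1 wild-type testis libraries, for nearest protein-coding genes of weaker and of strong peaks between genes, for genes with a peak at an end and for all protein-coding genes. Medians of the nearest genes of weaker peaks lie at 7.02 to 8.39, in each library above that of all protein-coding genes and below that of genes with a peak at an end.

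Nearest genes were themselves often sites of breaks. Of the 2192, 1438 (65.6%) had a peak within 1000 bp of an end, against 45.5% of all protein-coding genes, and for the strong peaks between genes it was 122 of 168 (72.6%). The nearest genes with such a peak had median mRNA levels of 13.8 and 14.1 in the Prdm9 KO pair, 13.9 and 13.0 in the Hop2 KO pair and 13.6 in the wild-type library. The 754 without one had 0.632 and 0.714 in the Prdm9 KO pair, 0.644 and 0.661 in the Hop2 KO pair and 1.75 in the wild-type library. All protein-coding genes split in the same way, with medians of 18.1 to 18.9 in the KO libraries and 21.3 in wild type where they had such a peak, and 0.258 to 0.314 in the KO libraries and 1.17 in wild type where they had none. Among genes with a peak at an end, the nearest genes thus had lower medians than all such genes, and among genes without one they had higher medians. Nearest genes over 100 kb away had lower medians, of 3.70 to 4.43 in the KO libraries and 6.09 in wild type, than those within 10 kb, with 8.48 to 8.93 and 8.73.

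Of the genes most abundant in wild type, among the 513 protein-coding genes that were the nearest gene of a weaker peak within 10 kb of its edge, 9 are named here. Ubb, a polyubiquitin gene, had 3184 and 2488 in the Prdm9 KO pair, 3275 and 2701 in the Hop2 KO pair and 9788 in the wild-type library. Its peak, chr11:62559902-62561377, had all 19 fragments in break orientation (adjusted p = 7.84e-05, Fisher's exact test). Tcp11, a gene of sperm function, had 1.63 and 2.62 in the Prdm9 KO pair, 2.44 and 3.35 in the Hop2 KO pair and 4993 in the wild-type library. Its peak, chr17:28084102-28085709, lay 3376 bp from the start, with 84.2% of 19 fragments in break orientation (adjusted p = 0.0134, Fisher's exact test). Those 2 peaks were the ones among the 9 that passed. Rps24, a ribosomal protein gene, had 1015 and 879 in the Prdm9 KO pair, 1094 and 1169 in the Hop2 KO pair and 1304 in the wild-type library, with 46.2% of 26 fragments in break orientation. Ubb and Rps24 share sequence with related genes or pseudogenes, so their levels are uncertain. The small difference between KO and wild type at Rps24 also depends on the larger sum of the wild-type column.

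The other 6 were Fam229a, Nupr1l, Aqp11, a water channel, Akap1, which anchors protein kinase A at mitochondria, Dyrk1b, a protein kinase, and Mlf1. Each had 4.76 to 48.4 in the 4 KO libraries and 828 to 1606 in wild type. Their peaks held 4 to 40 fragments, with 57.9 to 85.7% in break orientation. The summed level of the 3 spermatid markers Prm1, Prm2 and Tnp1 was 0.893 and 3.29 in the Prdm9 KO pair, 0.794 and 19.99 in the Hop2 KO pair and 78897 in the wild-type library, and the part of missing spermatids in these gene differences was not tested. In such bulk samples, fewer cells of a type and less RNA per cell cannot be told apart. The 5 meiotic markers summed to 273 and 295 in the Prdm9 KO pair and 280 and 277 in the Hop2 KO pair. In the wild-type library the sum was 229, so meiotic RNA was present in every library. Single meiotic markers differed in direction in the deposited values. The wild-type column sums to 1622660, against 825459 to 953598 in the KO columns. Small differences between KO and wild type, such as that of Sycp1, therefore depend on the scale. In the KO libraries against wild type, Dmc1 had 31.8 to 34.8 against 9.07 and Stra8 55.1 to 67.7 against 13.8. Sycp3 had 60.1 to 88.1 against 50.9, and Sycp1 75.5 to 110 against 83.8. Spo11 had 10.7 to 13.7 against 71.4. The sums of the 3 Sertoli cell markers were 276 to 304 in the KO libraries and 73.4 in wild type. Those of the 3 Leydig cell markers were 23943 to 70992 in the KO libraries and 5587 in wild type. Most of the Leydig sums came from Insl3, at 21025 to 68224 in the KO libraries and 5124 in wild type. The 2 markers of spermatogonia summed to 63.1 to 82.7 in the KO libraries and 15.9 in wild type.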

How the data were processed

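Positions of peaks and of type 1 single-stranded fragments in 1 SSDS library were used as the authors deposited them. Per the submitters' processing notes, CASAVA and MACS2 2.1.0.20150420 were used with builds GRCm38 and mm10. The aligner, the control and the peak settings, including whether strand entered peak calling, are not stated in the labels or headers. The deposited mRNA signal was called TPM by the authors, per the file headers. Its columns sum to 825459 to 953598 in the KO libraries and 1622660 in wild type, so it was rescaled by an unstated factor. Values of KO and wild type are therefore not on a shared total, and the read depth is unknown. CASAVA, kallisto and sleuth are named for it in the notes. The number of unused value columns was 0.

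The 9397213 fragment lines were reduced to 2652951 distinct ones by chromosome, start, end and strand, 3.54 lines each, and 26.3% of these had their midpoint in a peak. Genes came from RefSeq GRCm38.p6, and 21012 of 21887 protein-coding genes (96.0%) matched the mRNA table. Gene strand came from the start windows where a gene had one. Each peak was tested with Fisher's exact test of strand by side of its middle, with Benjamini-Hochberg adjustment over all peaks and a threshold of 0.05. The test was first checked on simulated data. That check used a stronger orientation than this class has, and placed none in peaks with the fewest fragments. It therefore does not show how many such peaks the test can find. Densities used positions on a grid of 100 bp, over 1000 bp from gene ends and outside protein-coding genes. Fragments over 2000 bp from any peak served as those outside peaks. The sequence near peaks was not taken out of the grid, so the densities of these fragments per Mb are understated, also by chromosome. Python 3.11.15, pandas 2.3.3 and scipy 1.17.1 were used. PCR copies without molecular identifiers may remain among distinct fragments.

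Named peaks were the 6 farthest from and the 6 nearest to a gene end, the 6 with the smallest strand p and up to 3 on each side of the count limit. Named genes were the 10 most abundant in wild type among nearest genes within 10 kb. Some items that this rule names are not reported here. The rule also asked for sequence around peak middles and for CpG content, which were not analysed here, and the start windows were chosen in their place after the data were seen. The class, the lists and the tests were chosen with earlier results of these data known. Nothing states that the paired knockout libraries are from different animals.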

Additional observations from a re-analysis of the deposited data

How the results depend on the processing

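The class held 1948 peaks when every deposited fragment line was counted, against 3453 with distinct fragments, since repeated lines raise more peaks to the limit. The remaining settings gave 3242 to 4598. They were distance from the peak middle, gene starts only, protein-coding ends only, a limit of 2000 bp and overlap in place of midpoint. Fragments with 60 in both parts of the fourth column, an alternative chosen after seeing the data, were also among them. For gene starts only, genes of unknown strand kept both ends, and 54.1% of genes had a known strand. The number passing the strand test was 2723 with all lines, which counts copies as separate fragments (15071 over all peaks), and 647 with Benjamini-Yekutieli adjustment (7205 over all peaks), against 1337 as reported. Splitting at the median fragment, a window of 1000 bp either side and the same alternative for fragments gave 1126 to 1638. The median distance to a gene was 39.0 kb for protein-coding genes and 12.9 kb from the peak edge, against 13.7 kb. The median level of nearest genes was 7.02 in the lower Hop2 KO library, against 8.39 in wild type. The wild-type mRNA column sums to 1622660, against 825459 to 953598 in the KO columns, so the direction of this difference depends on the scale. Its cause was not tested. GC and CpG windows were not run, as no genome was used here, nor was a stricter peak list, as the list holds no score. No paired analysis was possible because no test compared groups of samples. Depth limits the strand test, which few peaks under 10 fragments could pass.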
